A study of Caenorhabditis elegans with 2 samples.

Results

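The set described here is the candidate SNPC-4 binding peaks of the left piRNA cluster of *Caenorhabditis elegans* chromosome IV. Members were the peaks of the authors' pooled list whose summit lay on IV from 4800001 to 6600000 on ce11, an interval of 1.8 Mb. By this rule, which used position alone, 650 of the 30000 pooled peaks were members. The worms were mixed-sex L2 larvae of strain OP179, genotype unc-119(ed3) III; wgIs179. This strain carries an eGFP-tagged *snpc-4* transgene in animals mutant for *unc-119*. There was 1 group of 2 biological replicates, each a chromatin immunoprecipitation of whole animals followed by sequencing, with library fragments of 150 to 350 bp, and no second condition. Which promoter drives the transgene and whether the endogenous *snpc-4* was intact is not given in the sources used here. A single strain was studied. The antibody is labelled by the gene name *snpc-4*. Since whole larvae were used, strong binding in a few cells and weak binding in many cannot be told apart.

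SNPC-4 belongs to SNAPc, a complex named for activating small nuclear RNA (snRNA) genes, which recognises a sequence element upstream of such genes and helps to recruit an RNA polymerase. In worms it also serves the genes of spliced leader RNAs, the short leaders that are trans-spliced onto many mRNAs, and the piRNA genes. C. elegans piRNAs, also called 21U-RNAs, are germline small RNAs bound by the Argonaute PRG-1. Most are made from separate short genes that crowd into clusters on IV, many with the upstream motif CTGTTTCA and its core GTTTC a short way before the RNA. At the L2 stage the germ line is a small part of the animal.

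The windows below are shown because the strongest members lay at these genes, or because another gene of the same kind had a weak peak or none. Each holds the 100 bases before the 5′ end of the gene and its first 21 bases, 5′ to 3′ along the gene's strand, from the RefSeq sequence of WBcel235, the assembly of ce11. Capitals mark a match to CGNAACNNGNNNNNTGTC, the 10 bases shared by the windows of *sls-2.17*, *Y9C9A.111* and *T08B6.64* in their best ungapped alignment over 18 positions. The alignment was made after the windows had been read, so that the pattern's presence in them is no result. The genes named sls encode SL2 spliced leader RNAs, the next 3 are U6-type snRNA genes, and the last 2 are snoRNA genes, whose RNAs guide the modification of other RNAs.

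sls-2.17: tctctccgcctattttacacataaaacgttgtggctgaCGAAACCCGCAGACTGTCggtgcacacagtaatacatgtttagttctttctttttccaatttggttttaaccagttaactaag
sls-2.13: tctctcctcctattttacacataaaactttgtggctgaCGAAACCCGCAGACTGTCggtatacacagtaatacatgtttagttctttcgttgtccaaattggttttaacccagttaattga
sls-2.12: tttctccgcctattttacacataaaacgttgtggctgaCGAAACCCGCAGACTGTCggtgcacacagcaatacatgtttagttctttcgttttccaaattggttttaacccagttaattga
Y9C9A.111: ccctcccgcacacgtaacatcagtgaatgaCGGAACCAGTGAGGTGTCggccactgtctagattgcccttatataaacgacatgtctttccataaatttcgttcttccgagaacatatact
Y17G9A.85: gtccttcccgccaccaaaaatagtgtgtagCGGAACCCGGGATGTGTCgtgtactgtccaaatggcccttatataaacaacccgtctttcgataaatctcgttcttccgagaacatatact
Y17G9A.90: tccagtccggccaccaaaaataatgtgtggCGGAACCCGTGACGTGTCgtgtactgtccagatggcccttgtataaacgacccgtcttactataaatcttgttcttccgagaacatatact
T08B6.64: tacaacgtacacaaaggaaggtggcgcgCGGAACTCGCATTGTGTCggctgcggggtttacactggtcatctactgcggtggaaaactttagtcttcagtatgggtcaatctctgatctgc
M03D4.78: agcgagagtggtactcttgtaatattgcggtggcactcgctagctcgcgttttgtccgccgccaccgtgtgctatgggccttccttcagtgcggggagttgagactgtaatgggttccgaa

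The *sls-2.17* window is IV:5317348-5317468 on the minus strand and that of *sls-2.13* is IV:5063511-5063631, also minus. The window of *sls-2.12* is IV:5261813-5261933 on the plus strand. The U6-type windows are IV:4930854-4930974 (plus) for *Y9C9A.111*, IV:4864715-4864835 (minus) for *Y17G9A.85* and IV:4866711-4866831 (plus) for *Y17G9A.90*. The snoRNA windows are IV:4880830-4880950 for *T08B6.64* and IV:6117856-6117976 for *M03D4.78*, both minus. Counting back from the 5′ end, the pattern lay at -62 to -45 in the SL2 windows, at -70 to -53 in the U6-type windows and at -72 to -55 in that of *T08B6.64*. The *M03D4.78* window has no match to these letters.

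The second set shows the piRNA genes of the 3 strongest members whose summit lay up to 100 bp upstream of a piRNA 5′ end. Here the 21 capitals at the end are the piRNA as annotated. In the window of *21ur-11141* the inner capitals mark CTGTTTCA at -45 to -38, and the 100 bases before the other pair hold no CTGTTTCA or GTTTC on the piRNA's strand. The windows were chosen by signal and do not stand for all members so placed. Of the 91 members so placed, 47 had CTGTTTCA within 100 bp of the summit on either strand.

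21ur-11261: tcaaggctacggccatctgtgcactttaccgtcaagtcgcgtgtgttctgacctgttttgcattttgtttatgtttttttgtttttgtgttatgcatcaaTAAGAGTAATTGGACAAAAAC
21ur-11141: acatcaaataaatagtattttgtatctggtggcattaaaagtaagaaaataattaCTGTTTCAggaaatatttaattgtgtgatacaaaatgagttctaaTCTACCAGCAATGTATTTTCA
21ur-7207: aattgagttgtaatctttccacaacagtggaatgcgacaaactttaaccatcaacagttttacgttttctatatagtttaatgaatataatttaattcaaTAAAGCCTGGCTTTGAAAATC

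These windows are IV:5364319-5364439 (plus), IV:5388154-5388274 (plus) and IV:5443096-5443216 (minus).

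The members were mostly weak peaks, from a list that the authors label as peaks and background. Their deposited −log10 q-values ran from 0.0471 to 2.48 with a median of 0.196. By that value most members are candidates of low confidence. Signal, the authors' peak-caller value, ran from 5.38 to 596 with a median of 7.71 (quartiles 6.24 and 10.6), against a median of 8.10 over all pooled peaks. The IDR list holds the peaks that passed the authors' irreproducible discovery rate threshold, and 28 of the 650 members were in it (4.31%, exact 95% interval 2.88 to 6.17). Over all pooled peaks 6.21% were in that list. The 28 were also the 28 strongest members: the weakest of them had a signal of 29.1 and the strongest outside had 27.6. Being in the IDR list and having a high signal are thus a single measure here. Of the 28, taken in this order, 5 lay within 250 bp of an snRNA or snoRNA gene, 2 within 250 bp of a piRNA 5′ end, 14 within 500 bp of a coding 5′ end and 7 near none of these. The intervals given for shares cover counting error only and treat peaks as independent, and sequencing depth is unknown.

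**Figure D1:**
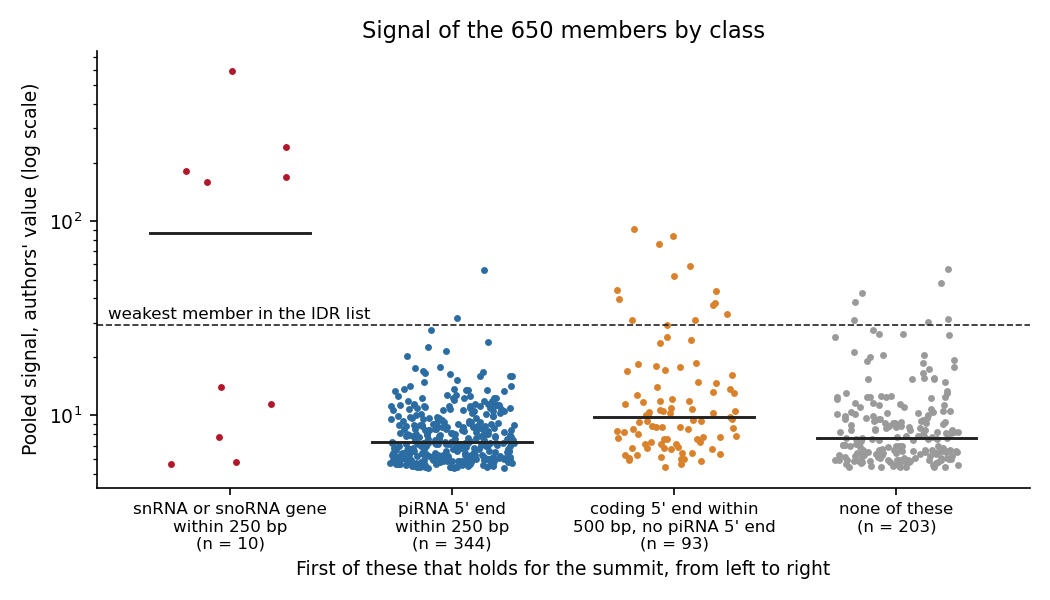
Pooled signal of the 650 members on a log axis, in 4 classes, each member standing in the first that holds for it from left to right. Each point is a member, black lines are medians, and points are spread sideways at random. The 10 members at snRNA or snoRNA genes reach 596 and include 5 members of the IDR list. The 344 near a piRNA 5′ end have a median of 7.26 and include 2 of that list. The strongest of the 344 (56.1) lies at *sls-2.19*, an SL2 gene annotated as a pseudogene and so outside the first class.

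At snRNA and snoRNA genes the summits of the strongest members lay just upstream of the RNA. The strongest had a pooled signal of 596 (IV:4880764-4881058), with 168 in replicate 1 and 426 in replicate 2, and its summit lay 66 bp upstream of the snoRNA gene *T08B6.64*. Over all pooled peaks it ranked 50. The next had a pooled signal of 241, with 51.6 in replicate 1 and 193 in replicate 2, 32 bp upstream of *sls-2.17*. Each list has a scale of its own, so the values of one member are given side by side and not compared.

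The third member, 71 bp upstream of *sls-2.13*, had a pooled signal of 182, with 39.7 in replicate 1 and 142 in replicate 2. The fourth lay in an intron of the coding gene *Y9C9A.8*, 63 bp upstream of the U6-type gene *Y9C9A.111*. It had 168 pooled, 34.1 in replicate 1 and 133 in replicate 2. The fifth, at *M03D4.78*, had 159 pooled, 39.0 in replicate 1 and 122 in replicate 2. Its summit was 58 bp upstream of the snoRNA gene and 281 bp upstream of the 5′ end of *zen-4*, a kinesin gene needed for cytokinesis, so distance assigns it to neither alone. In both replicates these 5 were higher than every other member with a peak there, and they take the first 5 ranks of the pooled signal.

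Copies of these genes differed widely in signal. The windows of *sls-2.17* and *sls-2.13*, both strong, match each other at 93 of the upstream 100 positions. The signal at *sls-2.12* was 14.1, with 13.1 in replicate 2 and no replicate 1 peak, although its upstream 100 bases match those of *sls-2.17* at 96 positions and those of *sls-2.13* at 93. They match those of the annotated SL2 pseudogene *sls-2.19* at 99 positions, and the member there, with its summit 16 bp inside the pseudogene, had a signal of 56.1 and was in the IDR list. Of the other U6-type genes, *Y17G9A.85* had a signal of 11.5, *T08B6.62* had 7.70 and *Y17G9A.90* had no member within 250 bp. The upstream 100 bases of these 3 genes match those of *Y9C9A.111* at 68 or 69 positions. The RNA-coding part of each U6-type gene is found 17 times in the genome, while each printed upstream window occurs once. Whether reads could be placed there was not tested.

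By class, 7 of the 8 annotated snRNA genes of the interval had a member within 250 bp, 3 of them in the IDR list, counting SL2 and the SmY gene *smy-7* (signal 5.74) in this class. For snoRNA genes it was 2 of 4, both in the IDR list. Of 9 tRNA genes 5 had a member, with signals of 19.2 to 27.5, all below the weakest member of the IDR list. Of 7 miRNA genes, *mir-790* (5.89) and *mir-8202* (5.92) had a member. These 2 values lie close to the lowest signal of the set. For comparison, 52 of 135 unclassified ncRNA genes (38.5%) had a member, 5 of them one of the IDR list. So did 2 of 6 lincRNA genes and 8 of 39 pseudogenes (20.5%), 0 and 1 of them with one of the IDR list. The miRNA share of 28.6% lies among these, so nothing particular to miRNA genes is read from it.

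The 18-letter pattern was then counted in 201-base windows centred on the summits, on both strands. It was in 9 of 650 members (1.38%, 0.635 to 2.61), against 0.883% of all pooled peaks. Of these 9, 5 were in the IDR list, and that count was fixed by how the pattern was made: they are the 3 members it was taken from and those at *sls-2.13* and *sls-2.19*, whose upstream bases match those of *sls-2.17* at 93 and 95 positions. In the whole IDR list it was in 115 of 1864 (6.17%, 5.12 to 7.36). In all, 4 alignments tied for the best score, each shifted by 1 base from the next. The other patterns were in 8 to 10 members, 5 of them in the IDR list each time, and in 97 to 115 peaks of the whole IDR list. The weakest member with it (5.43) lay 1392 bp from *Y73B6BL.29*, with no snRNA, SL2 or snoRNA gene within 250 bp, and was named after its value was seen.

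Coding promoters made up the largest group of the other members in the IDR list. A promoter here is the 500 bp on either side of an annotated coding 5′ end. Of the 28, 15 lay at one, 14 of them with the summit upstream of the 5′ end, and 14 had no snRNA or snoRNA gene beside them. Their share of 53.6% is close to that over the whole IDR list (53%), so nothing particular to these members is read from it. Over all 650 members 147 were at a promoter (22.6%, 19.5 to 26.0), against 28.7% of all pooled peaks and 22.9% of the bases of the interval. The set as a whole was therefore at promoters about as often as its bases were.

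The sixth strongest member (90.8, with 21.6 and 66.8 in replicates 1 and 2) had *lam-1*, the laminin beta gene, as its nearest gene and lay 255 bp upstream of *W03F8.4*. The seventh (83.4, with 23.3 and 59.9) lay 299 bp upstream of *sqd-1*, an hnRNP-type RNA-binding protein gene. The eighth (75.9, with 20.1 and 58.5) lay 8 bp upstream of *Y73B6BL.29*. These 3 were found in both replicates, and the last pair lie within 2 kb of each other.

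The ninth (59.1, with 9.35 and 52.0) had *ugt-24*, a UDP-glucuronosyltransferase gene, as its nearest gene and lay 256 bp upstream of *C49A9.10*. The tenth (56.6, with 13.6 and 44.0) lay in an intron of *lag-1*, the transcription factor of Notch signalling, 1802 bp from its 5′ end. At the lower limit of the IDR list were members near the unclassified ncRNA gene *B0350.67* (30.2) and at *fan-1* (29.1), a DNA repair nuclease gene, with the summit 32 bp upstream of a 5′ end. Replicate 2 had a peak at each of the 28 and replicate 1 at 26 of them (92.9%), near the 99.6% and 93.6% of the whole IDR list. The pair without one, named for that, lay 205 bp upstream of *hrpf-2* (43.9), an hnRNP F-type gene, and 99 bp downstream of the 5′ end of the SNARE gene *nbet-1* (39.6). By position 21 of the 28 lay between coding genes, 5 in introns, 2 in untranslated exons and 0 in coding exons. Over the whole IDR list 71.8% lay between coding genes, 22.4% in introns, 3.86% in untranslated exons and 1.93% in coding exons.

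The interval holds 2658 annotated piRNA genes, and most members lay near one, as did much of the sequence. Of the 650 summits 344 were within 250 bp of a piRNA 5′ end (52.9%, 49.0 to 56.8), against 5.53% of all pooled peaks. Within the interval 43.6% of the bases lie that near. Among the 590 members outside coding exons the share was 54.9% (50.8 to 59.0), against 48.6% of the bases outside coding exons. In the right cluster of IV, from 13600001 to 17300000, it was 74.98% of 1451 peaks (72.7 to 77.2), against 61.9% of the bases. Of the replicate 1 peaks in the interval 40.2% lay within 250 bp of a piRNA 5′ end, and of the replicate 2 peaks 52.9%. The share was thus above that of the bases in the replicate 2 list and not in the replicate 1 list. These lists are not at a like threshold, with median −log10 q-values of 1.33 and 0.326 in the interval. Coding exons held 18.3% and 9.36% of their summits there, and the share outside coding exons is not given for either list. Base composition differs as well, with a GC content of 30.7% within 250 bp of a piRNA 5′ end and 35.8% elsewhere in the interval. Mean GC of the 201-base windows at the summits was 31.8% for the members and 34.8% for all pooled peaks, while all bases of the interval had 33.6% and those outside coding exons 31.2%. The part of composition in the share was not tested.

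Few strong members were near piRNA genes. In the IDR list 2 of the 28 had a summit within 250 bp of a piRNA 5′ end (7.14%), against 1.72% of the whole IDR list. None of the 28 had one 1 to 100 bp upstream (0.429% of the whole IDR list), and the median distance was 1803 bp, against 223.5 bp over the 650. Both were named after their values were seen. The first is the member at *sls-2.19* (56.1), whose summit was 194 bp downstream of the 5′ end of *21ur-7377*. The second (31.8) was 186 bp downstream of that of *21ur-3329*, with no coding 5′ end nearer than 8815 bp. By gene, 597 of 2658 piRNA genes (22.5%, 20.9 to 24.1) had a member or other pooled summit within 250 bp, and 2 had one of the IDR list. In the right cluster a pooled summit lay that near to 24.95% of 11510 piRNA genes. Counted from the gene, as for the classes above, the share on the left was 23.2%. It lies between the 20.5% of pseudogenes and the 38.5% of unclassified ncRNA genes, so nothing particular to piRNA genes is read from it.

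Summits lay about as often on either side of the piRNA 5′ end. Of the 344 members within 250 bp, 170 lay upstream of the nearest one (49.4%, 44.0 to 54.8), against 52.1% of all such pooled peaks. Counted as pairs of a summit and a piRNA gene, 595 pairs had the summit within 500 bp upstream and 609 downstream. Within 100 bp the counts were 131 and 130. In steps of 50 bp there were 44 to 75 pairs, with no step standing clear of the rest. The 50 bp step that begins 150 bp upstream and ends nearer the gene was the highest in both clusters, at 28.2 pairs per 1000 piRNA genes on the left and 29.5 on the right. It was named after its values were seen. On the left the step from 300 to 349 bp downstream had 27.5, and on the right that from 250 to 201 bp upstream had 27.2.

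**Figure D2:**
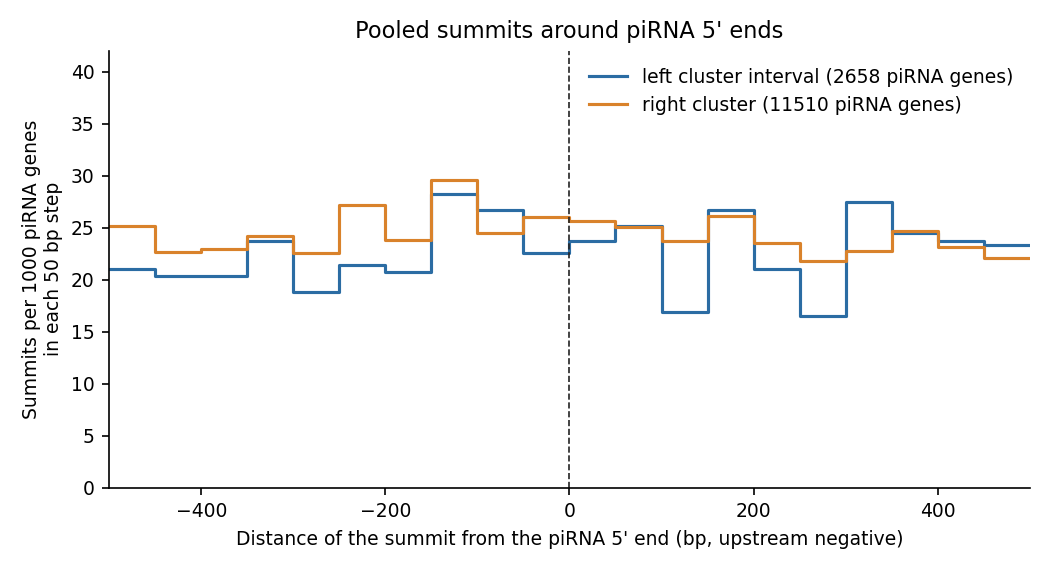
Pooled summits per 1000 piRNA genes in 50 bp steps of distance from the piRNA 5′ end, upstream negative, for the interval (2658 genes) and the right cluster of IV (11510 genes). A summit counts once for each piRNA gene within 500 bp of it, so the values are pairs of a summit and a gene. On the left the steps lie between 16.6 and 28.2 and show no single peak upstream of the 5′ end.

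The members nearest to the expected place of a piRNA promoter were weak, as most members were. With the summit 1 to 100 bp upstream of the nearest piRNA 5′ end there were 91 members (14%, 11.4 to 16.9), against 1.74% of all pooled peaks. Most of the genome has few piRNA genes, so the bases of the interval are the nearer comparison. Within 100 bp on either side lay 29.8% of the members and 22.1% of those bases. The share of bases on the upstream side alone was not computed. Signals of the 91 ran from 5.40 to 22.4 with a median of 7.33, against 7.71 over the 650, and none reached the IDR list. Of the 91, 20 had a replicate 1 peak (22.0%), 70 a replicate 2 peak (76.9%) and 11 both. Over the 650 the shares were 29.2%, 77.4% and 21.1%. The strongest (22.4, with 2.34 and 22.1 in replicates 1 and 2) lay 52 bp upstream of *21ur-11261* and also 61 bp upstream of *hda-6*, a histone deacetylase gene. The next (15.9) lay 13 bp upstream of *21ur-11141*, in an intron of the fatty acid elongase gene *elo-6*. The third (14.2) lay 96 bp upstream of *21ur-7207*, in an intron of the metabotropic glutamate receptor gene *mgl-3*. Neither of these had a replicate 1 peak.

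The 8-base piRNA motif was frequent around the members, as it is in the interval. CTGTTTCA, on either strand within 100 bp of the summit, was found at 121 members (18.6%, 15.7 to 21.8), against 2.54% of all pooled peaks. Windows of the same length tiled over the interval held it in 12.6% of cases, and those centred outside coding exons in 14.8%. In tiled windows centred within 250 bp of a piRNA 5′ end the share was 23.9%, and farther away it was 3.81%. Among members the corresponding shares were 29.9% and 5.88%. Of the 91 members with the summit 1 to 100 bp upstream of the nearest piRNA 5′ end, 47 held CTGTTTCA (51.6%). The share in tiled windows at that position was not computed, so no excess is read from this value. The shorter GTTTC, which is part of CTGTTTCA, was at 403 members (62.0%, 58.1 to 65.7), against 47.9% of all pooled peaks and 58.6% of tiled windows. Of the 28 members in the IDR list 0 held CTGTTTCA, and of the whole IDR list 0.644% did, so nothing particular to these members is read from it.

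Over piRNA genes, 1045 of the 2658 had CTGTTTCA in the 60 bp before their 5′ end. A pooled summit lay within 100 bp upstream of 65 of these (6.22%, 4.83 to 7.86) and of 66 of the 1613 others (4.09%, 3.18 to 5.18). Within 100 bp downstream the shares were 5.74% (4.41 to 7.33) and 4.402% (3.45 to 5.52). In the right cluster the upstream shares were 4.95% with the motif and 5.10% without it, so the upstream order on the left was not seen there. Its downstream shares were 5.77% (5.06 to 6.55) and 4.73% (4.26 to 5.23), in the same order as on the left. Within 250 bp on either side the shares were 26.3% and 24.3% on the right, and 22.8% and 22.3% on the left. The upstream and downstream intervals on the left overlap, as do the downstream ones on the right. None of these differences was tested.

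Split by signal, weaker members were more often near a piRNA 5′ end and stronger ones more often at a coding promoter. From the lowest to the highest of 4 equal groups by signal, each of 162 or 163 members, the share within 250 bp of a piRNA 5′ end was 62.0%, 56.2%, 52.5% and 41.1%. The share with CTGTTTCA was 25.2%, 20.99%, 17.9% and 10.4%. The promoter shares were 18.4%, 17.3%, 24.1% and 30.7%. Support from the replicates moved with signal too. A replicate 1 peak overlapped 15.3%, 20.99%, 27.8% and 52.8% of the groups, and a replicate 2 peak 56.4%, 69.1%, 86.4% and 97.5%. Mean GC of the windows was 30.3%, 30.3%, 31.5% and 35.1%, and its part in these shares was not tested.

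**Figure D3:**
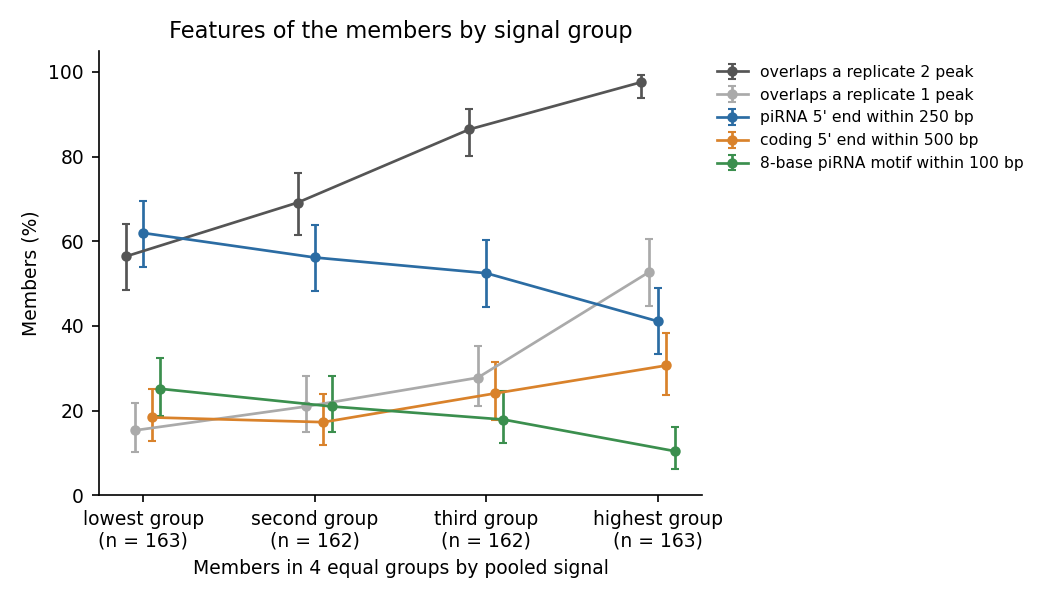
Share of members with each feature, in percent, in 4 equal groups by pooled signal, with exact 95% intervals as bars. The share near a piRNA 5′ end falls from 62.0% in the lowest group to 41.1% in the highest, while overlap with a replicate 1 peak goes from 15.3% to 52.8%.

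Peak density was compared with piRNA gene density in the 18 bins of 100 kb. The interval had 36.1 members per 100 kb, the right cluster 39.2, the rest of IV 28.8 and the genome 29.9. The most members were in bin 4 (5100001 to 5200000), with 50 members and 182 piRNA genes. The fewest were in bin 5, the next 100 kb, with 15 members and 88 piRNA genes. The most piRNA genes were in bin 11 (5800001 to 5900000), with 220 genes and 38 members, none in the IDR list. The fewest were in bin 16 (6300001 to 6400000), with 44 genes and 26 members, 4 of them in the IDR list. It is the bin of the interval with under 50 piRNA genes, and without it 624 members are left.

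Across the 18 bins piRNA gene counts and member counts had a Pearson r of 0.55 and a Spearman rho of 0.55. Without the 2 bins farthest from the median piRNA count r was 0.52, and without bin 5 it was 0.49. At other widths the 2 farthest bins were found anew, and r fell more without them. Over 9 bins of 200 kb it was 0.55 with them and 0.27 without, and over 36 bins of 50 kb 0.43 and 0.34. It was 0.24 for replicate 1 peaks and 0.49 for replicate 2 peaks, and 0.60 over 37 bins of the right cluster. Against the members in the IDR list the sign was the other way, with r of -0.50, and -0.20 without the 2 farthest bins. The bins share libraries, annotation and base composition, so these values are descriptions.

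Repeated sequence moved with the same counts. The share of 36-base words that occur more than once in the genome was 36.3% in bin 5 and 1.12% in bin 4, and 8.003% over the interval. Across the bins it had an r of -0.73 with the members (rho -0.56; -0.49 without the 2 farthest bins) and of -0.59 with the piRNA genes. Bases outside coding exons had an r of 0.36 with the members, and GC content one of -0.28. Reads from repeated sequence may not be placed by an aligner, and the part of this in the density was not tested.

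**Figure D4:**
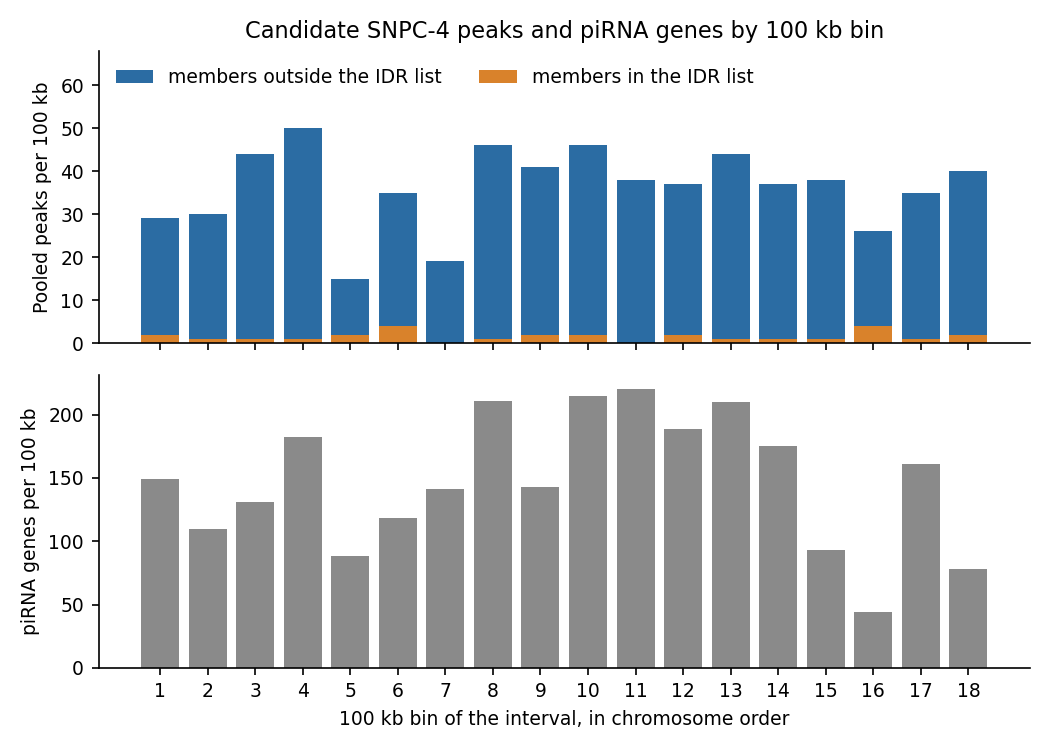
Members (upper panel, those in the IDR list in orange) and annotated piRNA genes (lower panel) per 100 kb bin, in chromosome order. Bin 4 has 50 members and bin 5 has 15, while piRNA genes run from 44 in bin 16 to 220 in bin 11.

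Neighbouring members were a median of 1628 bp apart, and 204 of 649 gaps were 1000 bp or less. The longest stretch with no member summit was 39.6 kb, IV:5974303-6013932, over the genes *unc-44*, which encodes ankyrin, and *C46G7.5*. It holds 31 piRNA genes, 10 replicate 1 summits and 1 replicate 2 summit. Its share of repeated words was 6.10%, below that of the interval.

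Between and within coding genes the members were spread much as all pooled peaks were. Summits lay between coding genes for 316 members (48.6%, 44.7 to 52.5; 48.5% of all pooled peaks) and in introns for 240 (36.9%, 33.2 to 40.8; 35.2%). They lay in coding exons for 60 (9.23%, 7.12 to 11.7; 9.78%) and in untranslated exons for 34 (5.23%, 3.65 to 7.23; 6.45%). The bases of the interval divide as 41.4% between genes, 31.7% intron, 22.6% coding exon and 4.30% untranslated exon. The share of members in coding exons was thus below that of the bases.

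The 3 genes with the most intron members are described here because of that number. The forkhead transcription factor gene *fkh-7* had 20 intron members with signals of 5.38 to 42.9, 2 of them in the IDR list, and 78 piRNA genes lie inside it. The potassium chloride cotransporter gene *kcc-2* had 19, up to 20.1, with 98 piRNA genes, and *soc-2*, a scaffold gene of Ras signalling, had 17, up to 17.9, with 52. Together they held 56 of the 240 intron members, a count that their choice favours. They are long genes, of 25.7, 33.5 and 25.5 kb, with 77.8, 56.7 and 66.8 intron members per 100 kb. Some shorter genes had a higher rate, such as *C01G5.25* with 7 in 6.97 kb (100 per 100 kb). Of the intron members of *fkh-7*, *kcc-2* and *soc-2*, 14, 14 and 12 were within 250 bp of a piRNA 5′ end, against 139 of all 240 (57.9%). Over the interval 1331 of the piRNA genes lie in coding-gene introns and 1214 between coding genes, and a pooled summit lay within 250 bp of 21.3% and 24.0% of them. The weakest member of all (5.38) was in an intron of *fkh-7* with no peak in either replicate, and the next weakest (5.39) in a coding exon of *best-9*.

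Of the 355 coding genes of the interval 120 had a member at a promoter (33.8%) and 19 had one in the IDR list (5.35%). The same shares over all coding genes of the genome were not computed, so nothing particular to the interval is read from these counts. The promoter members of the IDR list not yet described were 7. The strongest of them (52.4) lay between *perm-3* and *swsn-6*, within 500 bp of both 5′ ends, and the next (44.0) was as near to those of *F38A5.2* and *dnj-11*. The others were at *H35B03.2* (38.1), the translation initiation factor gene *eif-1.A* (37.2), *slc-46A* (33.1), the ribosomal protein gene *rps-25* (31.0) and the RNA exosome gene *exos-2* (30.9). Each of the 7 lay upstream of the nearest coding 5′ end and had a peak in both replicates. Of the 7 members of the IDR list near none of the features above, those at *lag-1* and *B0350.67* are given above. The others lay 757 bp upstream of *ipla-6* (48.1), in introns of *fkh-7* (42.9 and 31.2), 138 bp from the nearest gene *sand-1* (38.3) and in an intron of the nuclear hormone receptor gene *nhr-46* (31.1).

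The replicates differed in how much of the set they held. Of the members 190 shared at least 1 bp with a peak of replicate 1 (29.2%, 25.8 to 32.9; 35.8% of all pooled peaks), and 503 with one of replicate 2 (77.4%, 74.0 to 80.5; 77.8%). Both overlapped 137 (21.1%, 18.002 to 24.4; 25.9%) and neither 94 (14.5%, 11.8 to 17.4; 12.2%). A member with a peak in neither list was thus a candidate of the pooled reads alone. The replicate 1 list had 356 of its 21391 peaks in the interval (1.66%), and the replicate 2 list 652 of 30000 (2.17%), while the interval is 1.79% of the genome. Of these, 180 and 502 overlapped a pooled peak. The replicate lists differ in length and in how far down they reach. In the interval the median −log10 q-value was 1.33 for replicate 1 (lowest 0.603) and 0.326 for replicate 2 (lowest 0.0831). Their counts and overlaps are thus not at a like threshold.

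The lists also differed in where their peaks lay. In the interval 18.3% of replicate 1 summits were in coding exons, against 9.36% for replicate 2, and over the whole lists the shares were 19.9% and 9.56%. Mean GC of the windows was 35.5% for replicate 1 and 31.9% for replicate 2. Over the 137 members found in both, log2 signals of the replicates had a Pearson r of 0.81 and a Spearman rho of 0.61, against 0.77 and 0.59 over the 7772 pooled peaks found in both. Peaks share libraries and depth, so these are descriptions.

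**Figure D5:**
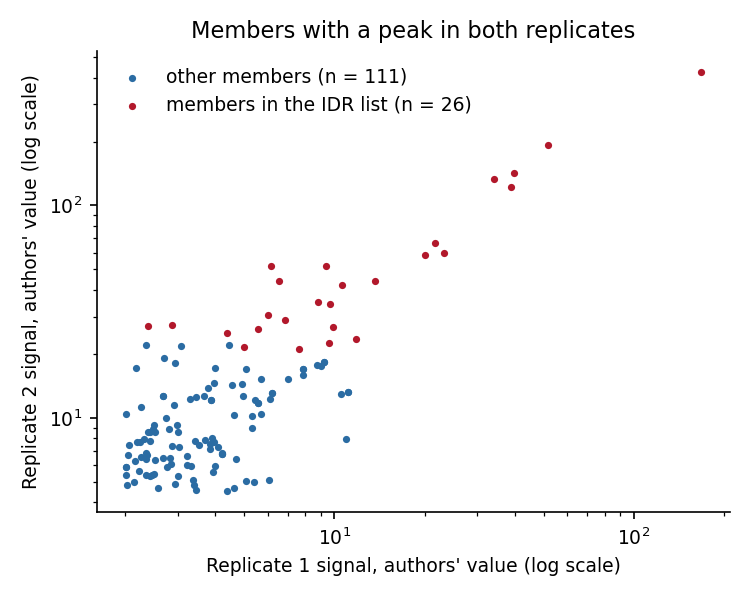
Signal in replicate 2 against replicate 1, both on log axes, for the 137 members with a peak in both lists, with the 26 of the IDR list in red. The strongest members are high in both, up to 168 and 426, and the weaker ones form a broad cloud.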

How the data were processed

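Binding of eGFP-tagged SNPC-4 was measured in 1 group of 2 biological replicates of L2 larvae. Per the deposited description files, the authors called peaks in either replicate and in both pooled, against a control alignment, as input to IDR, and derived an IDR-thresholded list. Column 7 holds the signal that the authors' peak caller gave each peak, whose scaling is not given in the sources used here. Column 9 of the deposited lists is a −log10 q-value and was used to describe the lists only. Aligner, caller and read counts are not given in the sources used here, so depth is unknown. The ce10 lists were not used.

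The ce11 lists were joined to Ensembl release 115 (WBcel235) genes and RefSeq sequence of that assembly. A summit is the start plus column 10. Peaks overlapped at 1 bp or more. Shares carry exact (Clopper-Pearson) 95% intervals, and no significance test was run, since there is 1 group. The pooled list contains the reads of both replicates, so its overlap with them is not independent support.

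The genes named are those nearest to the 10 strongest members, the 2 weakest members of the IDR list, the piRNA genes of the 3 strongest members just upstream of one, the 3 genes with most intron members, the extreme bins and the 2 weakest members. All other genes, such as the copies of the strongest genes, the miRNA genes, the other members of the IDR list and the genes of the longest gap, were named after their values were seen. The members and lists were chosen with earlier results of these data known. Added after the values were seen were the printed small RNA windows, the 18-letter pattern, base shares, GC, signal groups, repeated words and gaps. A search for a word of 6 or more bases shared by the 5 strongest windows had found none, 1 pattern was then written by hand from the windows, and it and the 3 that tie with it in an ungapped alignment were scanned. In all 12 relations across bins were computed. Distance, overlap and motif steps were checked on simulated data. Python 3.11.15, numpy 2.4.6, pandas 2.3.3, scipy 1.17.1 and matplotlib 3.10.9 were used.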

Additional observations from a re-analysis of the deposited data

How the results depend on the processing

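Of 34 alternative settings over 11 values, 15 left the value near the one reported and 19 did not. Near means inside the exact interval of a share or median, within 1.5 times for a count, and within the SD of both replicate values for the correlation. No value has a test. Each replicate list alone, from replicate 1 only to replicate 2 only, gave 356 to 652 peaks in the interval (650 pooled), median signals of 2.94 to 6.74 on scales of their own, 40.2% to 52.9% of summits within 250 bp of a piRNA 5′ end (52.9%), 42.7% to 51.3% of those upstream (49.4%), 26.1% to 23.0% at promoters (22.6%), 33.7% to 35.0% in introns (36.9%), 14.9% to 16.9% with CTGTTTCA (18.6%) and an r across bins of 0.24 to 0.49 (0.55). The strongest 932 peaks of the IDR list held 15 members. Requiring a reciprocal overlap of at least 50% lowered the shares found in replicates 1 and 2 to 22.2% and 72.6%, and summits within 100 bp lowered them to 20% and 69.5%. The share near a piRNA 5′ end was 29.8% at 100 bp and 70.0% at 500 bp, against 22.1% and 60.3% of the bases. The promoter share was 11.4% at 250 bp and 37.7% at 1000 bp, against 12.2% and 41.6% of the bases. Of the members in the IDR list 17.9% were in introns, and CTGTTTCA within 50 bp was at 9.38%. Beyond what the wider or narrower windows and smaller lists bring by construction, the cause was not tested. No paired analysis was possible because there is 1 group. Read depth, which would limit the weak members, is unknown.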
